A study of Arabidopsis thaliana with 9 samples.

Results

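The transcripts described here belong to 5 Arabidopsis thaliana genes of pigment synthesis, GSA1 (AT5G63570), HEME1 (AT3G14930), CHLI2 (AT5G45930) and PORB (AT4G27440) of the chlorophyll pathway and LYC (AT3G10230) of the carotenoid pathway. They were chosen by name and locus, with earlier results of these data known. Each was matched by 1 probe set among the 22746 of the array table. All 5 probe sets passed the filter on dim signals that left 15922 for testing. RNA came from whole seedlings grown for 4 days in the dark, with 3 biological replicates and 1 array each for cop1-4 carrying BBX22-GFPox, for cop1-4 alone and for wild type, all in the Col-0 ecotype. All 3 groups were in darkness on sucrose plates, and both mutant groups carried the cop1-4 allele, which is known as a weak and viable one. The labels name no promoter for BBX22-GFPox and do not say how many lines were used. No group had the construct in an otherwise wild type plant. The transcripts of COP1 and BBX22 were not analysed here and gave no check of the genotypes.

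COP1 is an E3 ubiquitin ligase that targets light-signalling transcription factors for degradation in the dark, and the B-box protein BBX22 regulates transcription and promotes light responses. Chlorophyll is made from glutamate through 5-aminolevulinic acid and a series of porphyrins. The steps up to protoporphyrin are shared with haem, and insertion of magnesium opens the chlorophyll branch. In dark-grown flowering plants the branch stops at protochlorophyllide, because its reduction by protochlorophyllide oxidoreductase (POR) needs light, and POR proteins accumulate with that pigment in the etioplast. Carotenoids are made in the same plastids from isoprenoid precursors, and cyclisation of lycopene is where their main branches part.

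Values are MAS5 signals on a linear scale that the arrays shared, and the level of one probe set cannot be set against that of another. Replicate 1 stood apart in every genotype. Its log2 values correlated with those of replicates 2 and 3 at 0.816 to 0.926 within a genotype, while replicates 2 and 3 correlated at 0.982 to 0.989. Results are therefore given also for replicates 2 and 3 alone, a subset chosen after seeing the data, and p-values there measure only the spread between those arrays. Of 3 root hair markers the 2 with a named probe set, EXPA7 and EXPA18, summed to 101 in replicate 1 against 766 and 949 in replicates 3 and 2 of cop1-4 BBX22-GFPox, to 196 against 905 and 1049 in cop1-4 and to 47.0 against 553 and 610 in wild type. Of 4 leaf mesophyll markers the 2 measured, both of them photosynthesis genes, summed to between 32367 and 42873 in cop1-4 BBX22-GFPox and between 28937 and 56964 in cop1-4, against 7443 to 11229 in wild type. The 3 stomatal lineage markers, SPCH, MUTE and FAMA, summed to 276 to 340.4 in cop1-4 BBX22-GFPox and 213 to 231 in cop1-4, against 105 to 136 in wild type. FAMA, the brightest, lay between 110.6 and 199.2 in cop1-4 and between 31.5 and 95.1 in wild type. SPCH overlapped, with 24.6, 93.3 and 85.7 in replicates 1, 2 and 3 of cop1-4 and 33.1, 33.3 and 70.3 in those of wild type. MUTE was too dim to pass the filter. The seed oil body gene OLEO3, the measured 1 of 4 seed storage markers, lay between 35.9 and 98.9 in cop1-4 BBX22-GFPox and between 45.6 and 69.1 in cop1-4, against 1960 to 2323 in wild type. No measured marker was listed at 0, but this does not show that each was detected. MUTE lay between 2.1 and 7.6 in wild type, and EXPA7 at 6.6 in replicate 1 of wild type. The 3 root endodermis markers were not analysed here. The part of these markers in the results below was not tested, and in whole seedlings fewer cells of a type and less RNA per cell cannot be told apart.

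The first comparison asked how the 5 transcripts differed between cop1-4 and wild type in darkness. PORB, which encodes a POR enzyme, was 6.81-fold lower in cop1-4 than in wild type. HEME1 and CHLI2, which act earlier in the same pathway, rose 2.39-fold and 2.82-fold. GSA1 and LYC had positive changes that missed the threshold. Log2 changes are differences of log2(signal + 24.5), which understates those of dim probe sets. A transcript was called at a limma adjusted p under 0.05, and 3 of the 5 were called where 25.8% of all tested probe sets were. Of the 5, 2 rose and 1 fell, beside 11.3% raised and 14.5% lowered over all tested probe sets. The median log2 change was 0.91 for the 5 genes and −0.11 for all tested probe sets. The 5 genes were chosen with earlier results of these data known, so setting them beside all probe sets is descriptive only. Scaling the arrays to equal medians moved the median of all probe sets to 0.00, so that 56.5% of calls were then raised in place of 43.8%, and 2 of the 5 genes remained raised and 1 lowered.

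**Figure D1:**
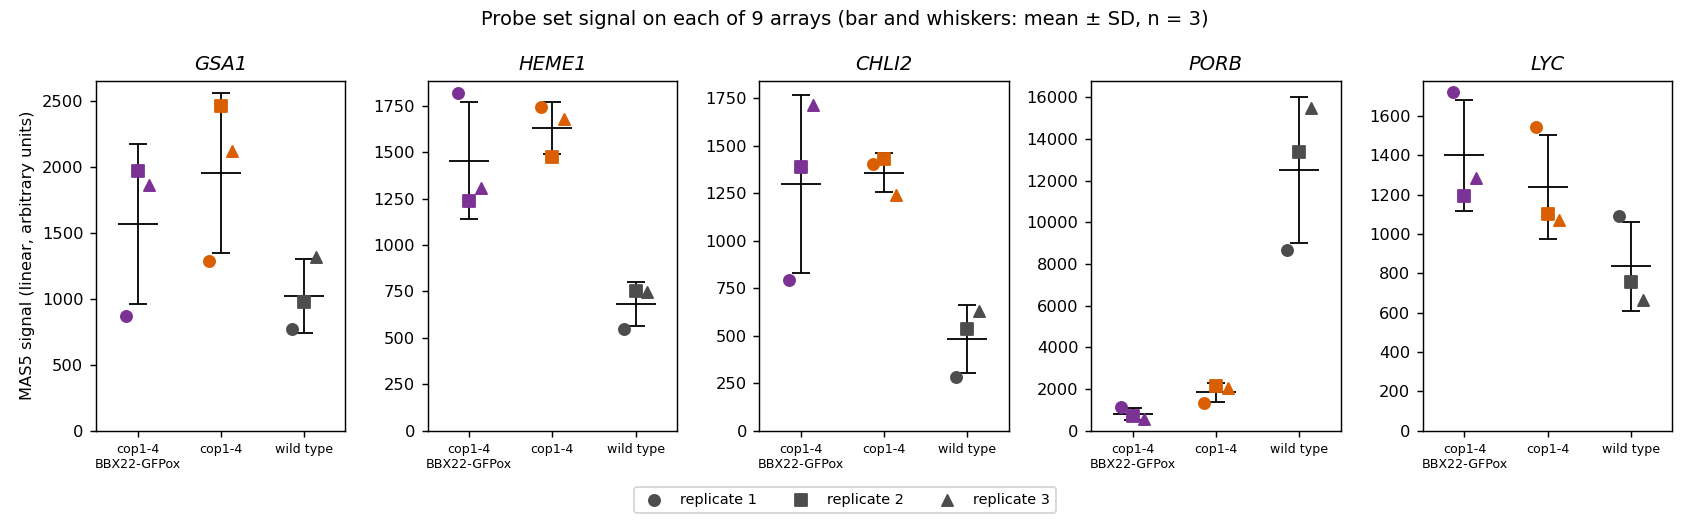
Linear MAS5 signal (y axes, each starting at 0) of the 5 genes on each of the 9 arrays, by genotype (x axes). Marker shapes give the replicate number, and bars with whiskers give the mean ± SD of 3 arrays. PORB was highest in wild type, at 8669 to 15508, against 558 to 1109 in cop1-4 BBX22-GFPox and 1329 to 2157 in cop1-4.

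GSA1 encodes glutamate-1-semialdehyde aminomutase, which makes 5-aminolevulinic acid, the first precursor that all tetrapyrroles share. Its signal was 866, 1967 and 1861 in replicates 1, 2 and 3 of cop1-4 BBX22-GFPox, 1286, 2462 and 2123 in those of cop1-4, and 768, 973 and 1321 in those of wild type. Replicate 1 was the lowest array of every genotype, and the groups overlapped: replicate 1 of cop1-4 lay below replicate 3 of wild type. The means were 1565 ± 607 in cop1-4 BBX22-GFPox, 1957 ± 606 in cop1-4 and 1021 ± 279 in wild type (SD, n = 3). The log2 change in cop1-4 against wild type was 0.91 (SE 0.39, 95% interval 0.03 to 1.78) and was not called (adjusted p = 0.115). With the replicate number as a block it passed (adjusted p = 0.00759), as it did when replicate 1 of cop1-4 was left out (log2 change 1.18, adjusted p = 0.0434). In replicates 2 and 3 alone the change was 1.00 (adjusted p = 7.1e-05).

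HEME1 encodes a uroporphyrinogen decarboxylase, a later step of the shared trunk. Its signal was 1821, 1240 and 1307 in replicates 1, 2 and 3 of cop1-4 BBX22-GFPox, 1743, 1476 and 1678 in those of cop1-4, and 546, 752 and 748 in those of wild type. Every array of either mutant genotype lay above all 3 wild type arrays. The means were 1456 ± 318 in cop1-4 BBX22-GFPox, 1632 ± 139 in cop1-4 and 682 ± 118 in wild type. HEME1 rose in cop1-4 by a log2 of 1.24 (SE 0.23, 95% interval 0.72 to 1.76, adjusted p = 0.00628). The call held when any 1 of the 9 arrays was left out (adjusted p up to 0.0247) and in replicates 2 and 3 alone (log2 change 1.04, adjusted p = 1.1e-05).

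CHLI2 encodes a subunit of magnesium chelatase, the enzyme that opens the chlorophyll branch. It had signals of 792, 1389 and 1714 in replicates 1, 2 and 3 of cop1-4 BBX22-GFPox, 1400.4, 1429.7 and 1239.3 in those of cop1-4, and 282, 533 and 627 in those of wild type. No array of either mutant genotype reached down to the wild type arrays, and replicate 1 was the lowest in cop1-4 BBX22-GFPox and in wild type but not in cop1-4. The means were 1298 ± 467 in cop1-4 BBX22-GFPox, 1356 ± 103 in cop1-4 and 481 ± 178 in wild type. The gene rose in cop1-4 by a log2 of 1.52 (SE 0.35, 95% interval 0.72 to 2.32, adjusted p = 0.0161). Leaving out replicate 2 of cop1-4 left 1.48 with an adjusted p of 0.0545, and no other left-out array ended the call. Replicates 2 and 3 alone gave 1.17 (adjusted p = 1.32e-05). CHLI1, which encodes a very similar subunit, has no named probe set here, and probe sequences were not used, so hybridisation of close copies to the probe sets was not checked.

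PORB encodes a light-dependent POR of the step at which chlorophyll synthesis stops in darkness. Its signal was 1109, 678 and 558 in replicates 1, 2 and 3 of cop1-4 BBX22-GFPox, 1329, 2157 and 2029 in those of cop1-4, and 8669, 13371 and 15508 in those of wild type. The 3 genotypes did not overlap: all cop1-4 BBX22-GFPox arrays lay below all cop1-4 arrays, and these below all wild type arrays. How common such separation was over all tested probe sets is not given here, for PORB or the other genes described. The means were 782 ± 289.97 in cop1-4 BBX22-GFPox, 1838 ± 446 in cop1-4 and 12516 ± 3499 in wild type. PORB was 6.81-fold lower in cop1-4 than in wild type (log2 change −2.74, SE 0.34, 95% interval −3.51 to −1.97, adjusted p = 0.0014). The call held without any 1 of the 9 arrays (adjusted p up to 0.00901). The change was −2.68, −2.62 and −2.92 within replicates 1, 2 and 3, close to each other although replicate 1 stood apart over all probe sets.

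LYC encodes lycopene beta-cyclase, which closes the rings of beta-carotene. Its signal was 1721, 1193 and 1283 in replicates 1, 2 and 3 of cop1-4 BBX22-GFPox, 1542, 1101 and 1069 in those of cop1-4, and 1092, 753 and 662 in those of wild type. Replicate 1 was the highest array of every genotype, the opposite of GSA1, and replicate 1 of wild type lay above replicate 3 of cop1-4. The means were 1399 ± 283 in cop1-4 BBX22-GFPox, 1237 ± 264 in cop1-4 and 836 ± 227 in wild type. The log2 change in cop1-4 against wild type was 0.56 (SE 0.27, 95% interval −0.04 to 1.17) and was not called (adjusted p = 0.147). Within replicates 1, 2 and 3 it was 0.49, 0.53 and 0.67, and it passed with the replicate number as a block (adjusted p = 0.019). Replicates 2 and 3 alone gave 0.60 (adjusted p = 0.00143). With the block all 5 genes were called in this comparison, where 44.6% of all tested probe sets were, and all 5 were also called in replicates 2 and 3 alone, where 62.4% were.

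The next comparison set cop1-4 BBX22-GFPox against cop1-4 and asked about the effect of the construct when COP1 is impaired. Limma called 0 of the 5 genes between cop1-4 BBX22-GFPox and cop1-4, with 1 at an unadjusted p under 0.05. Over all tested probe sets 0.301% were called, 0.283% raised and 0.0188% lowered, and the share at that unadjusted level is not given here. The gene with the unadjusted p under 0.05 was PORB, which averaged 782 in cop1-4 BBX22-GFPox and 1838 in cop1-4, a difference of 2.35-fold (log2 change −1.24, SE 0.34, 95% interval −2.01 to −0.46, adjusted p = 0.274). Its difference was −0.26 within replicate 1, and −1.63 and −1.82 within replicates 2 and 3. In replicates 2 and 3 alone PORB was called (log2 change −1.73, adjusted p = 8.75e-07), where 24.2% of all tested probe sets were called. With the replicate block it was not (adjusted p = 0.14, where 1.29% were called). With array quality weights it was (log2 change −1.67, adjusted p = 3.89e-05), and these weights gave 3510 calls over all probe sets in place of 48.

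The other 4 genes had small differences between cop1-4 BBX22-GFPox and cop1-4, with 95% intervals that reached both sides of 0. The log2 change was −0.36 for GSA1 (−1.23 to 0.52), −0.18 for HEME1 (−0.70 to 0.34), −0.13 for CHLI2 (−0.93 to 0.68) and 0.18 for LYC (−0.43 to 0.78), each with an adjusted p of 0.999. The GSA1 interval reached past −0.91, the change that would have returned it to its wild type mean, while its interval with the replicate block (−0.82 to 0.10) ended short of it. For HEME1 and CHLI2 the intervals ended short of the changes of −1.24 and −1.52 that would have returned the gene to its wild type mean. For all 3 genes these target changes are themselves estimates that share the cop1-4 arrays, so they are not fixed limits. The sign was not stable for CHLI2, which stood at −0.80, −0.04 and 0.46 within replicates 1, 2 and 3, and GSA1 stood at 0.019 in the unblocked fit when replicate 1 of cop1-4 BBX22-GFPox was left out. Within replicates 1, 2 and 3 GSA1 stood at −0.56, −0.32 and −0.19, all of the same sign.

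**Figure D2:**
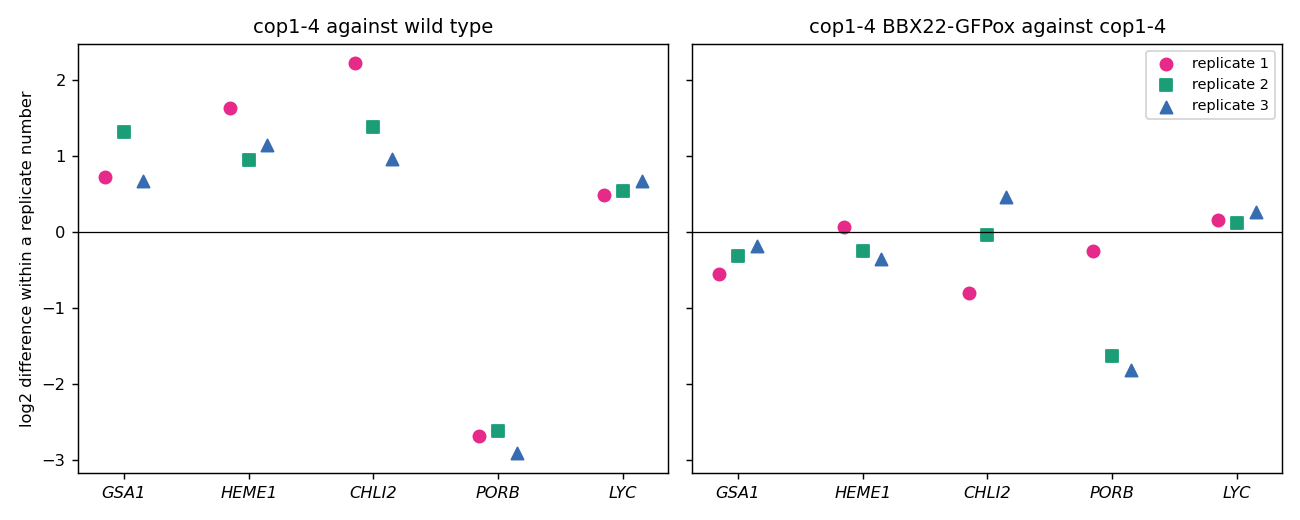
Log2 differences of the 5 genes between arrays of the same replicate number (y axis, on log2(signal + offset)), for cop1-4 against wild type (left) and cop1-4 BBX22-GFPox against cop1-4 (right). On the right PORB lay at −0.26 in replicate 1 and at −1.63 and −1.82 in replicates 2 and 3, and on the left its 3 values lay between −2.92 and −2.62.

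The comparison of cop1-4 BBX22-GFPox with wild type shares its arrays with both others and is given for its own values. PORB was 16.0-fold lower in cop1-4 BBX22-GFPox than in wild type (log2 change −3.98, SE 0.34, 95% interval −4.75 to −3.20, adjusted p = 0.00033). HEME1 rose by a log2 of 1.06 (adjusted p = 0.0128) and CHLI2 by 1.39 (adjusted p = 0.0247). These 3 calls among the 5 genes stand beside 21.5% called over all tested probe sets, 9.8% raised and 11.7% lowered. The CHLI2 call was lost without replicate 1 of wild type (adjusted p = 0.073), without replicate 2 of wild type (0.0559) and without replicates 2 or 3 of cop1-4 BBX22-GFPox (0.0831 and 0.0921). Those of PORB and HEME1 held without any 1 of the 9 arrays (adjusted p up to 0.00349 and 0.0464).

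LYC stood at 0.74 against wild type (95% interval 0.14 to 1.34, adjusted p = 0.0788), with all 3 cop1-4 BBX22-GFPox arrays above all 3 wild type arrays. The share of all tested probe sets that separate in this way is not given here. LYC was called with the replicate block (adjusted p = 0.00699) and when replicate 1 of cop1-4 was left out of the shared estimate of the spread (0.0474). GSA1 stood at 0.55 (95% interval −0.32 to 1.42, adjusted p = 0.337), at 0.92 without replicate 1 of cop1-4 BBX22-GFPox and at 0.34 without replicate 2. With the block 4 of the 5 genes were called, where 40.7% of all tested probe sets were, and in replicates 2 and 3 alone all 5, where 60.2% were.

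**Figure D3:**
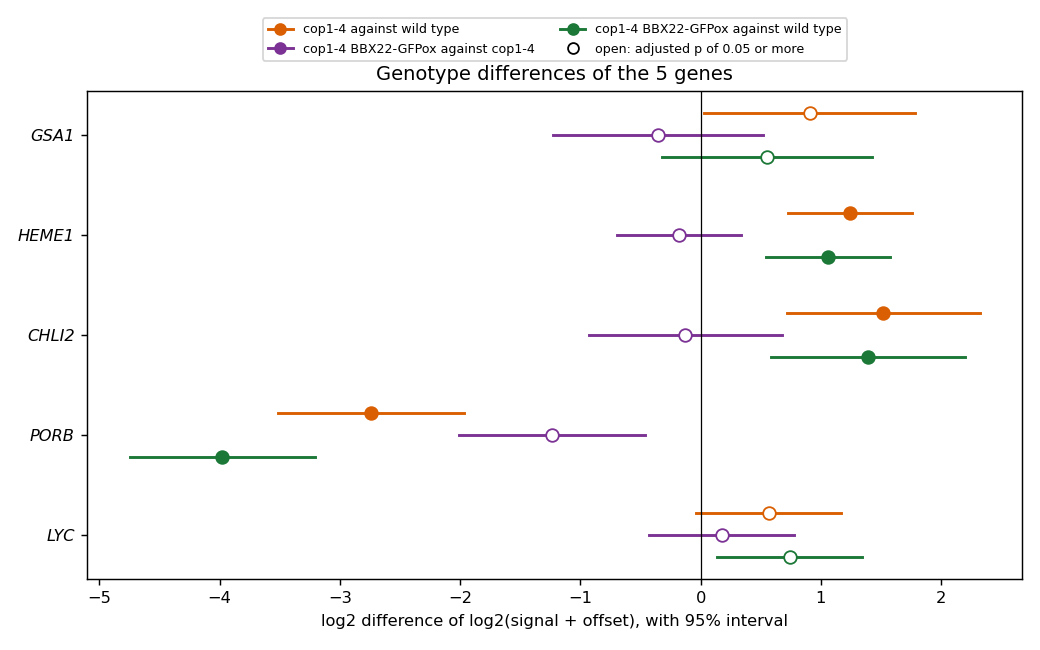
Log2 differences of the 5 genes (x axis, on log2(signal + offset)) in the 3 genotype comparisons, with 95% intervals from limma over 9 arrays; filled points have an adjusted p under 0.05. PORB lay at −2.74, −1.24 and −3.98 in cop1-4 against wild type, cop1-4 BBX22-GFPox against cop1-4 and cop1-4 BBX22-GFPox against wild type, and the changes of the other 4 genes lay between −0.36 and 1.52.

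Ordered by level, PORB ran from cop1-4 BBX22-GFPox (lowest) through cop1-4 to wild type. Its step between the mutants missed the limma threshold in the unblocked, unweighted fit (adjusted p = 0.274) and with the replicate block (0.14). That step passed with array weights and in replicates 2 and 3 alone. For HEME1 and CHLI2 wild type was lowest and the 2 mutants did not differ beyond their spread. For GSA1 wild type was also lowest and cop1-4 highest, and for LYC cop1-4 BBX22-GFPox was highest, but neighbouring levels of these genes missed the threshold in the unblocked, unweighted fit. The step between cop1-4 and wild type in LYC passed with the replicate block (adjusted p = 0.019).

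The genes also differed in how replicate 1 deviated. On the log2 scale replicate 1 of GSA1 lay below the mean of replicates 2 and 3 by differences of −1.12 in cop1-4 BBX22-GFPox, −0.82 in cop1-4 and −0.55 in wild type. Replicate 1 of LYC lay above by 0.47, 0.497 and 0.61 in the same genotypes. PORB deviated by 0.83 in cop1-4 BBX22-GFPox but by −0.65 in cop1-4 and −0.73 in wild type, so its cop1-4 BBX22-GFPox value was the odd one in replicate 1. CHLI2 deviated by −0.94 in cop1-4 BBX22-GFPox, by 0.07 in cop1-4 and by −0.98 in wild type, and HEME1 by 0.51 in cop1-4 BBX22-GFPox, by 0.14 in cop1-4 and by −0.44 in wild type.

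Other genes of tetrapyrrole and carotenoid metabolism place these values in their pathways. The lists named 79 further genes, of which 15 had a probe set with 1 gene and 13 passed the filter, while HEMA3 and HEMB2 were too dim. The rest, PORA, PORC, the other magnesium chelatase subunits and phytoene synthase among them, were not analysed here. In cop1-4 against wild type 5 of the 13 rose, 1 fell and 7 were not called, beside 11.3% raised and 14.5% lowered over all tested probe sets. Their median log2 change was 0.82, beside −0.11 for all tested probe sets. The lists too were chosen with earlier results of these data known, so the shares beside them are descriptive only. Together with the 5 genes above 9 of 18 were called, beside 25.8% of all tested probe sets, and 4 were called when replicate 2 of cop1-4 was left out. With the replicate block 13 of 18 were called, beside 44.6% of all tested probe sets. In replicates 2 and 3 alone 15 were called, beside 62.4%, and AT1G74470 and HEMA2 were then also lower.

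Among the shared tetrapyrrole steps HEMB1, which encodes 5-aminolevulinic acid dehydratase, rose in cop1-4. It averaged 3177 ± 185 in cop1-4 and 1795 ± 199 in wild type (log2 change 0.82, adjusted p = 0.0181). The call was lost without replicates 1 or 2 of wild type (0.0588 and 0.0545) and without replicates 2 or 3 of cop1-4 (0.0624 and 0.0615). HEME2, the other measured uroporphyrinogen decarboxylase gene, averaged 2152 ± 698 in cop1-4 and 934 ± 161 in wild type, and its change of 1.14 was not called (adjusted p = 0.0642). It was called with the replicate block (0.00365), with median scaling (0.03) and without replicate 1 of cop1-4 or of cop1-4 BBX22-GFPox (0.022 each). HEMA2, a glutamyl-tRNA reductase gene, stood at −0.29 (adjusted p = 0.603) and the coproporphyrinogen oxidase gene HEMF2 at −0.58 (0.343). HEMF2 was dim, at 20.4, 101.6 and 107.7 in replicates 1, 2 and 3 of cop1-4 and 86.5, 157 and 99.3 in those of wild type. Without replicate 1 of cop1-4 HEMA2 stood at −0.64 and HEMF2 at −0.071, and without replicate 2 of cop1-4 HEMA2 stood at −0.097. Within replicates 1, 2 and 3 HEMA2 stood at 0.56, −0.66 and −0.76. AT5G63290, listed by locus and without a symbol in the gene table used here, rose by 1.71 (adjusted p = 0.0136, lost without replicate 3 of wild type at 0.0527 or replicate 2 of cop1-4 at 0.0541). It too was dim, averaging 241 ± 104 in cop1-4 and 52.9 ± 17.6 in wild type, beside an offset of 24.5.

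In the chlorophyll branch the close relatives LIL3:1 and LIL3:2 were called in opposite directions. They encode light-harvesting-like proteins that bind geranylgeranyl reductase, the enzyme that makes the phytyl tail of chlorophyll. LIL3:1 averaged 3378 ± 381 in cop1-4 and 1295 ± 382 in wild type and rose by a log2 of 1.41 (adjusted p = 0.007), a call that held without any 1 array (up to 0.032). LIL3:2 averaged 3580.1 ± 878 in cop1-4 and 6102 ± 593 in wild type and fell by 0.79 (adjusted p = 0.0395). The LIL3:2 call was lost without replicate 1, 2 or 3 of wild type (0.0667, 0.12 and 0.108), without replicate 2 or 3 of cop1-4 (0.0954 and 0.13), without replicate 2 or 3 of cop1-4 BBX22-GFPox (0.0654 and 0.0616), with median scaling (0.109) and with no filter (0.0587). AT1G74470, the geranylgeranyl reductase gene, stood at −0.63 (adjusted p = 0.117). It was called with quantile normalization (0.0342) and without replicate 1 of wild type (0.0299). CHLM, which encodes the methyltransferase after magnesium chelatase, stood at 0.92 (adjusted p = 0.213), with 2.16 within replicate 1 and 0.22 and 0.37 within replicates 2 and 3.

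Outside these steps NOL and Z-ISO rose. NOL, which encodes a chlorophyll b reductase of chlorophyll breakdown, averaged 799 ± 144 in cop1-4 and 281 ± 17.5 in wild type (log2 change 1.42, adjusted p = 0.00274), and the call held without any 1 array (up to 0.0155). Z-ISO, which encodes the 15-cis-zeta-carotene isomerase upstream of lycopene, averaged 875 ± 225 in cop1-4 and 344 ± 52.5 in wild type (log2 change 1.26, adjusted p = 0.0194). The Z-ISO call was lost without replicates 1 or 2 of wild type (0.0659 and 0.0587) and without replicates 2 or 3 of cop1-4 (0.0711 and 0.0658). SIRB, which encodes the ferrochelatase of sirohaem, stood at 0.55 (adjusted p = 0.0512) and passed with the replicate block (0.0248), under quantile normalization (0.0297), under median scaling (0.0277) and when replicate 1 of cop1-4 was left out (0.026). AT5G61670, listed with the carotenoid genes by locus, stood at −0.20 (adjusted p = 0.545).

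Between cop1-4 BBX22-GFPox and cop1-4 limma called 0 of the 18 genes, beside 0.301% of all tested probe sets. There were 2 at an unadjusted limma p under 0.05, PORB and LIL3:2. The share of all probe sets at that level is not given here. With the replicate block 0 of the 18 were called, beside 1.29% of all tested probe sets. LIL3:2 stood at 5175 ± 587 in cop1-4 BBX22-GFPox and 3580.1 ± 878 in cop1-4 (log2 change 0.55, adjusted p = 0.641), and all 3 arrays of cop1-4 BBX22-GFPox lay above those of cop1-4. The share of all tested probe sets that separate like this is not given here. AT5G63290 stood at −0.84 (adjusted p = 0.693) and CHLM at 0.43 (0.999). In replicates 2 and 3 alone 5 of the 18 were called, beside 24.2% of all tested probe sets, PORB and AT5G63290 lower and CHLM, LIL3:2 and AT5G61670 higher in cop1-4 BBX22-GFPox. There the log2 change was −0.96 for AT5G63290 (adjusted p = 0.00762), 0.72 for CHLM (0.00664), 0.63 for LIL3:2 (0.00833) and 0.53 for AT5G61670 (0.0198).

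Against wild type 4 of the 13 further genes rose in cop1-4 BBX22-GFPox and 0 fell, beside 9.8% raised and 11.7% lowered over all tested probe sets. LIL3:1 rose by 1.36 (adjusted p = 0.00867), NOL by 1.16 (0.0066), HEMB1 by 0.93 (0.0125) and Z-ISO by 1.09 (0.0378). The HEMB1 call was lost without replicate 2 or 3 of cop1-4 BBX22-GFPox (0.0568 and 0.0535). That of Z-ISO was lost without any 1 of 7 arrays, all but replicate 1 of either mutant genotype (up to 0.131). With the 5 genes above this made 7 of 18 called, beside 21.5% of all tested probe sets. There were 12 under the replicate block, beside 40.7%, 16 in replicates 2 and 3 alone, beside 60.2%, and 4 without replicate 2 or 3 of cop1-4 BBX22-GFPox. Among the calls in replicates 2 and 3 alone HEMA2, AT1G74470 and LIL3:2 were lower, as was PORB. The block added LYC, HEME2 (0.92, adjusted p = 0.0106), AT5G63290 (0.87, 0.0274), CHLM (1.35, 0.0195) and SIRB (0.48, 0.0434). LIL3:2 stood at −0.24 (adjusted p = 0.506).

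**Figure D4:**
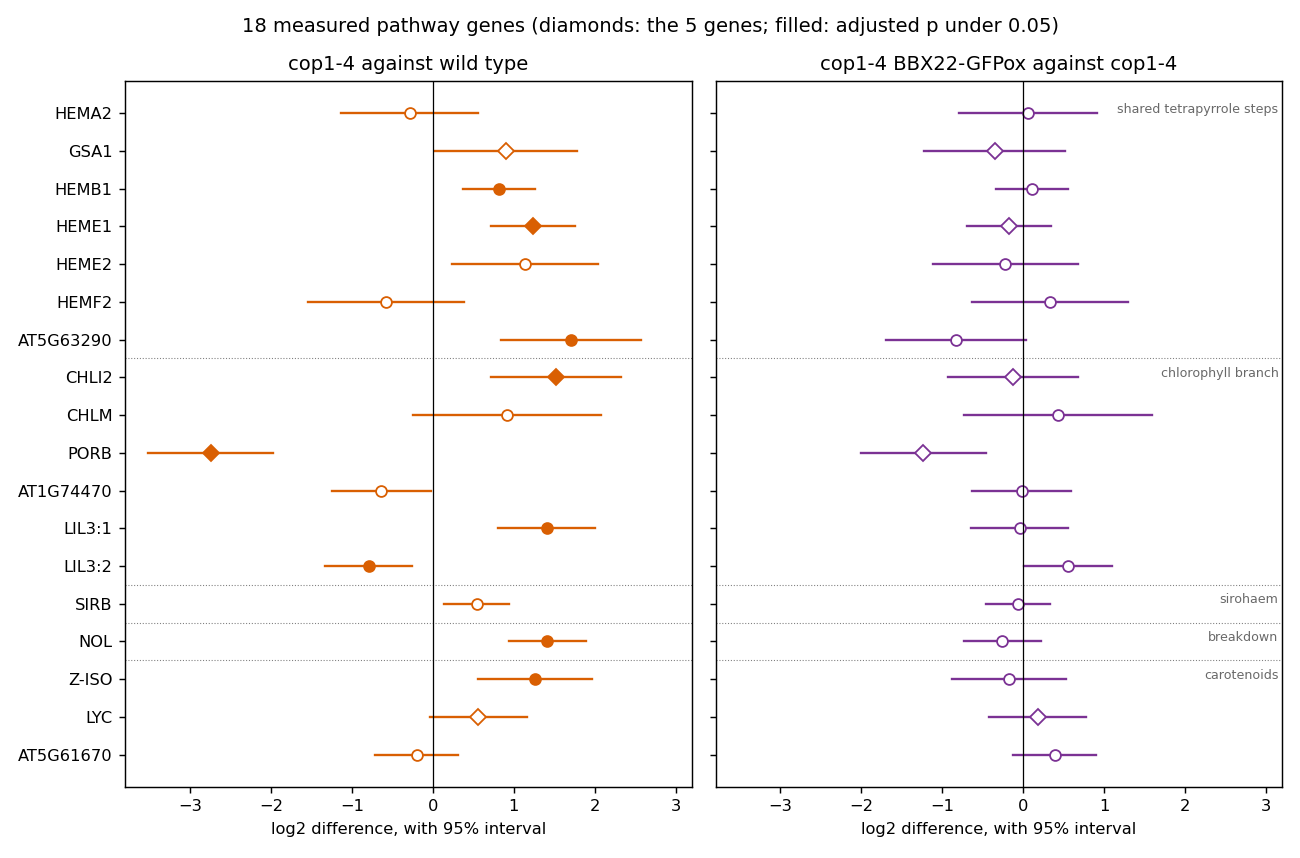
Log2 differences (x axes, with 95% intervals from limma) of the 18 measured pathway genes in pathway order, for cop1-4 against wild type (left) and cop1-4 BBX22-GFPox against cop1-4 (right). Diamonds mark the 5 genes and filled symbols an adjusted p under 0.05; on the left 7 genes rose and PORB and LIL3:2 fell, and on the right 0 were called.

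Among these genes the 5 had different nearest patterns. The points of each correlation are the 9 arrays, which share genotypes and replicate numbers, so r describes these arrays alone. Over log2 values GSA1 was most like HEME2 (r = 0.938) and Z-ISO (0.9197), and HEME1 most like LIL3:1 (0.901) and HEMB1 (0.8603). CHLI2 was most like LIL3:1 (0.966) and HEMB1 (0.945). PORB was most like AT1G74470, the geranylgeranyl reductase gene (0.765), and LYC most like CHLM (0.863). PORB correlated negatively with each of the other 4 genes, with r from −0.48 for GSA1 to −0.80 for LYC. These values include the differences between genotype means. With the genotype means taken out, r with PORB was 0.67 for HEME1, 0.05 for GSA1, −0.07 for CHLI2 and −0.35 for LYC.

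Of 8601 other genes ranked in the same way, those closest to PORB were AT3G24450 (r = 0.989), AT2G46620 (0.984) and AT5G62280 (0.983). In cop1-4 against wild type AT3G24450, AT2G46620 and AT5G62280 stood at −1.82, −0.85 and −2.20 on the log2 scale. They were picked by likeness to PORB over the same arrays, so their direction is not separate evidence. Closest to HEME1 were AT5G16010 (0.987), AT1G49750 (0.984) and AT1G04420 (0.982), and closest to CHLI2 were AT3G13120 (0.984), AT3G08740 (0.984) and AGL26 (0.982). GSA1 was closest to AT3G49100 (0.986), AT2G29260 (0.983) and AT3G02900 (0.982), none of them called in cop1-4 against wild type (adjusted p from 0.061 to 0.0828). LYC was closest to CCL (0.979), AT1G79510 (0.975) and AT5G43260 (0.972).

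Position along the chromosome was a further feature that the choice of genes did not use. The 3 protein-coding genes on each side of the 5 made 30 neighbours, of which 12 were tested. In cop1-4 against wild type 0 of these rose and 3 fell, AT3G14960 near HEME1 and AT3G10250 and AT3G10260 near LYC. Over all tested probe sets 25.8% were called, 11.3% raised and 14.5% lowered. The share of neighbours called was thus near that of the whole array. No tested neighbour of GSA1, CHLI2 or PORB was called, but few were tested. The only one for GSA1 was FACT (limma adjusted p = 0.24). Those for CHLI2 were AT5G45920 (0.0604), AT5G45950 (0.673) and AT5G45960, which stood at −1.51 (0.0533). For PORB only the genes directly beside it were tested. The tested genes directly beside PORB, AT4G27435 and AT4G27450, stood at −0.79 (adjusted p = 0.072) and −1.63 (0.196). These neighbours were looked up after the values of the 5 genes had been seen.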

How the data were processed

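The authors deposited 1 linear intensity per probe set and array, which the submitters' processing notes credit to MAS5, and the sources used here do not give the version or target of MAS5. The 2% trimmed mean was 495 or 496 on all 9 arrays, and the table held 0 control probe sets. Probe sets were named from the platform annotation (13513 with 1 gene, 503 with several, 8730 with none here), and 13436 matched a TAIR10.1 gene table used only for names and gene order. An offset of 24.5, the 20th percentile of the table, was added to each signal before log2 was taken. Probe sets with a mean log2 value at or above the 30th percentile were kept. limma 3.58.1 in R 4.3.3 was fitted to all 9 arrays with 1 mean per genotype (lmFit, eBayes with an intensity trend), and p-values were two-sided and Benjamini-Hochberg adjusted over all 15922 kept probe sets in each comparison. The fit was tried on simulated data with 200 planted changes. Noise there was independent between arrays, without the shared deviation of replicate 1, so that run does not cover this feature of the data. The 5 genes and the lists were chosen with earlier results of these data known. Genes named besides the 5 include the measured list genes and cell type markers. They also include, for each of the 5, the 3 genes of highest Pearson correlation over the arrays. Some neighbours on the chromosome are named too, looked up after the values of the 5 had been seen. Each genotype has replicate numbers 1 to 3 in its labels. Arrays with the same number deviated together from their genotype means in all 9 pairs (r 0.375 to 0.806), and the replicate block used these numbers. Because replicate 1 stood apart, replicates 2 and 3 of different genotypes also correlated (0.337 to 0.739). These values therefore cannot tell whether replicates 2 and 3 were paired by number across genotypes. The labels call the replicates biological without saying whether they were sown apart, so p-values reflect the spread among these arrays, whose number limits the precision. Alternatives covered the offset, normalization, filter, replicate block, variance model, array weights and each array left out.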

Additional observations from a re-analysis of the deposited data

How the results depend on the processing

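Of the changes of the 5 genes in the 3 comparisons, 126 of 135 values with 1 array left out kept their direction and side of the threshold, as did 126 of 135 under the other offsets, normalizations, filters and variance models and the replicate block. With the replicate block, array weights, replicates 2 and 3 only, or replicate 1 as a batch term (the last 2 chosen after seeing the data), 5 of the 5 genes were called in cop1-4 against wild type in place of 3. In cop1-4 BBX22-GFPox against cop1-4, array weights and replicates 2 and 3 only each gave 1 in place of 0, and against wild type 5 were called in place of 3 with array weights, replicates 2 and 3 only or the batch term. The block changed no other call of the 5 genes than those of GSA1 and LYC given above.

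Of the 18 pathway genes, array weights, replicates 2 and 3 only and the batch term gave 15 calls each in cop1-4 against wild type in place of 9, and leaving out 1 array gave 4 to 12. In cop1-4 BBX22-GFPox against cop1-4 array weights and replicates 2 and 3 only gave 5 each in place of 0. In cop1-4 BBX22-GFPox against wild type the replicate block gave 12, array weights 15, replicates 2 and 3 only 16 and the batch term 14 in place of 7, and leaving out 1 array gave 4 to 10. Over all probe sets the replicate block, array weights, replicates 2 and 3 only and the batch term gave 7096, 9776, 9932 and 7910 calls in cop1-4 against wild type in place of 4100. They gave 206, 3510, 3856 and 432 in cop1-4 BBX22-GFPox against cop1-4 in place of 48, and 6479, 9389, 9590 and 7250 in cop1-4 BBX22-GFPox against wild type in place of 3427. In the same order of comparisons, leaving out 1 array gave 2214 to 5641, 11 to 372 and 1819 to 4820, and a filter at the 50th percentile, which tests fewer probe sets, gave 27 in place of 48.

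Directions turned only in cop1-4 BBX22-GFPox against cop1-4, for values that were not called. With 1 array left out the log2 change ran between −0.63 and 0.019 for GSA1, −0.36 and 0.19 for CHLI2, −0.30 and 0.41 for HEMA2, −0.53 and 0.19 for HEME2, −0.18 and 0.60 for HEMF2, −0.10 and 0.058 for AT1G74470, −0.12 and 0.061 for LIL3:1, −0.16 and 0.027 for SIRB, and −0.41 and 0.13 for Z-ISO. CHLI2 stood at 0.15 with array weights and 0.21 in replicates 2 and 3 only, and HEMF2 at −0.0051 in replicates 2 and 3 only. AT1G74470 stood at 0.069 with quantile normalization, 0.027 with array weights and 0.063 in replicates 2 and 3 only. The cause was not tested.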
